A study of Xenopus laevis with 16 samples.

Results

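The transcripts described here encode the Nodal ligands of Xenopus laevis and the secreted antagonists Cerberus and Lefty. They were chosen by name: both copies of cer1, every identifier that starts with nodal, and every transcript whose human match is LEFTY1 or LEFTY2. This gave 16 of the 43653 transcripts listed, 12 of them nodal, 2 cer1 and 2 lefty, and both lefty transcripts have LEFTY2 as their match. One identifier, nodal3.5.L, is listed for 2 of the 16, which leaves 15 distinct names. The endings .L and .S mark the copies of a gene on the long and short chromosomes of the allotetraploid frog. Copies and duplicated nodal genes are alike in sequence, and the sources used here do not say how their reads were assigned, so differences between copies are uncertain.

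Nodal proteins are secreted ligands of the TGF-beta superfamily that signal through activin receptors with an EGF-CFC co-receptor and activate Smad2 and Smad3, which turn on genes of mesoderm and endoderm with the partner Foxh1. Nodal signalling raises transcription of nodal genes themselves and of lefty, whose product blocks the ligand and its co-receptor, so the pathway holds both a positive and a negative loop. Cerberus, made in the anterior endomesoderm of the frog gastrula, is secreted and binds Nodal, BMP and Wnt ligands. In Xenopus the early nodal genes are active in vegetal cells, and the animal cap, the ectoderm at the top of the blastula, forms epidermis when it is left alone.

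RNA was read in 16 libraries, all collected at stage 12 of gastrulation from embryos of Nasco frogs. Dissociated caps (n = 3) were cut and taken apart into cells at stage 9. Injected caps (n = 1 each) came from embryos given mRNA during early cleavage. The dose was 16 pg for Wnt8, 200 pg for each of BMP4, FGF8 and Xnr2, and 400 pg for Chordin and for Cerberus, and a further library received Wnt8 and Xnr2 together at these same doses. Control caps (n = 4) were cut at stage 9, like all the caps, and were not injected. A dorsal and a ventral embryo part (n = 1 each) were cut at stage 10. The labels tie BMP4, Chordin and dissociated 1 to control 1, dissociated 2 to control 2, Wnt8, Cerberus and dissociated 3 to control 3, and the FGF8 library and both Xnr2 libraries to control 4. No label states that replicates are from different clutches, and the p-values therefore measure only how much these libraries vary, which may be technical.

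Values are RPKM, reads scaled to transcript length and to the mapped reads of the library. Whole reads could be worked back from them, with depths between 25408438 mapped reads in the ventral part and 46522450 in control 3, and the reads behind each value are given where they matter. Control 1 stood apart from the others: across 14362 transcripts its log2 values correlated at 0.84 to 0.90 with controls 2 to 4, which correlated at 0.94 to 0.95 with each other. Its krt12.S, an epidermal keratin, read 56.2 RPKM, against 659 to 1773 RPKM in controls 2 to 4, while sox17a.L, an endoderm gene, read 2.14 RPKM in control 1 and 0.240 to 0.639 RPKM in the rest. Results that rest on control 1 are given with and without it where it matters. In such bulk samples, fewer cells of a type and less RNA per cell cannot be told apart.

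Transcripts of the injected genes were higher in their libraries, by very different amounts. The library injected with Cerberus held 6208 RPKM of cer1.S, from 436690 reads, against 0.056 RPKM in control 3, and a single read lay on cer1.L. Xnr2 is the product of nodal2, and nodal2.L read 3.29 RPKM in Xnr2 caps and 12.5 RPKM in Wnt8 plus Xnr2 caps, against 0.0374 RPKM in control 4. Injected and endogenous nodal2 cannot be told apart in these low values, and whether the injected Xnr2 mRNA was still present was not tested. The cer1 transcripts in Cerberus caps and nodal2 in both Xnr2 libraries are set aside below.

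Untreated caps held little RNA of this group. Of the 16 transcripts, 5 were at 0 in every library with a value (nodal2.S, nodal3.3.L, nodal3.4.L and the pair named nodal3.5.L). Another 4 had at most 2 reads in any library, namely nodal.S, nodal1.S, nodal6.L and nodal6.S. Only nodal.L, nodal1.L, cer1.S, cer1.L, lefty.L and lefty.S reached 1 RPKM in a library not injected with the gene itself, and none of these did so in a control. A count of 0 here allows up to 3 reads per library. The 5 at 0 have values only in controls 1 to 3 and dissociated caps. Names differ between tables: the keratin krt5.7.L was at 0 in those libraries but read 1714 RPKM in control 4. Models described as Xnr3 had reads under other names, given at the end. Whether a 0 under these 5 names means absent RNA was not tested.

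**Figure D1:**
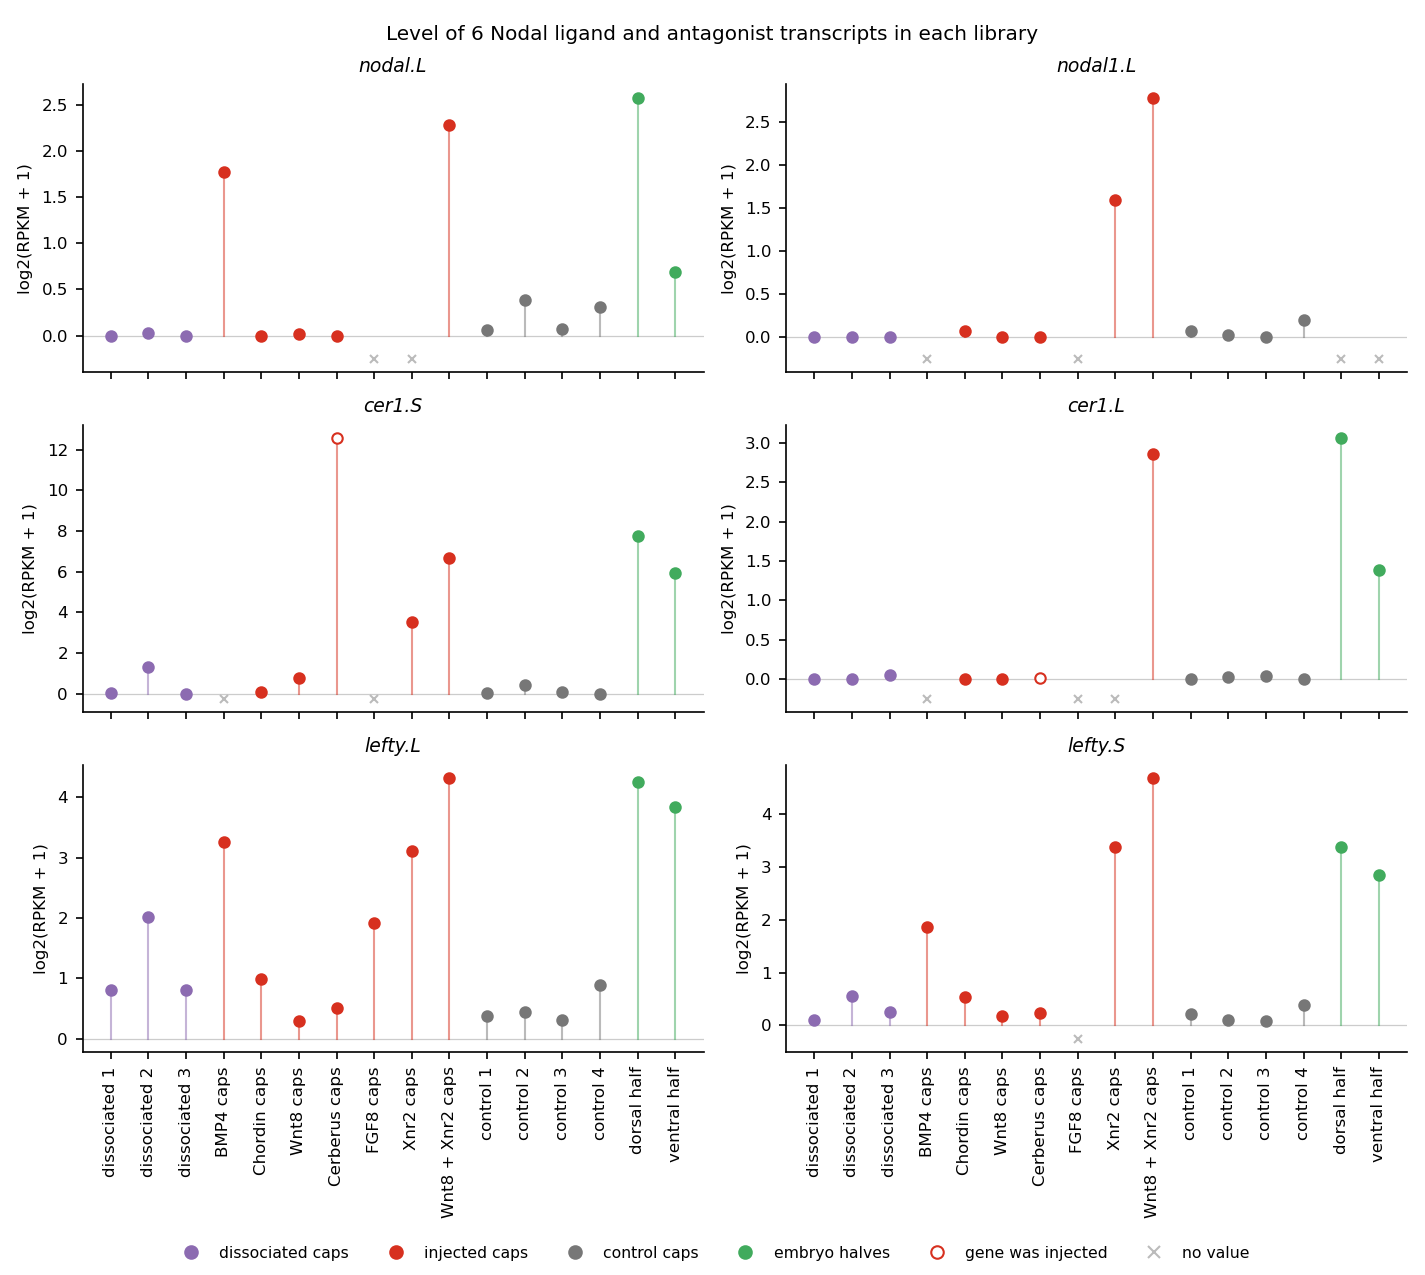
Level of the 6 transcripts that reached 1 RPKM, as log2(RPKM + 1), in each of the 16 libraries; open points mark libraries injected with that gene and crosses mark libraries without a value. The level in Wnt8 plus Xnr2 caps lies above all 4 controls in each panel, and lefty.L is the 1 transcript with a value in all 16 libraries.

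The ligand nodal.L was highest in the dorsal part and next highest in Wnt8 plus Xnr2 caps. It read 3.86 RPKM in Wnt8 plus Xnr2 caps (224 reads) and 2.41 RPKM in BMP4 caps (141 reads). Both lay above the controls, at 0.0405, 0.302, 0.050 and 0.238 RPKM. Chordin, Cerberus, dissociated 1 and dissociated 3 were at 0, dissociated 2 held 1 read (0.0219 RPKM) and Wnt8 caps held 1 read (0.0139 RPKM). The dorsal part read 4.97 RPKM (236 reads) and the ventral part 0.617 RPKM (27 reads), so the ventral value was nearer to the highest control than to the dorsal part. FGF8 and Xnr2 caps have no value for it.

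The other ligand that appeared, nodal1.L, which encodes Xnr1, was found above 8 reads in the Xnr2 libraries alone. It read 2.01 RPKM in Xnr2 caps (90 reads) and 5.86 RPKM in Wnt8 plus Xnr2 caps (295 reads), against 0.0467, 0.0174, 0 and 0.146 RPKM in controls 1 to 4. All 3 dissociated libraries, Wnt8 caps and Cerberus caps were at 0, and Chordin caps had 2 reads. The BMP4 and FGF8 libraries and the embryo parts have no value. The highest control, control 4, is the one matched to the Xnr2 libraries, and Xnr2 caps were 13.7-fold above its 8 reads (95% interval 6.67 to 32.8, exact binomial on reads, counting error only).

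The antagonist cer1.S had the widest range of levels in the group. The values were 10.4 RPKM in Xnr2 caps, 102 RPKM in Wnt8 plus Xnr2 caps, 216 RPKM in the dorsal part and 59.7 RPKM in the ventral part. Every other library with a value, apart from the injected one, was under 2 RPKM, with controls at 0.0227, 0.355, 0.056 and 0 RPKM. Dissociated caps read 0.0235, 1.45 and 0 RPKM, and the higher library is the one paired with control 2, the highest control. Wnt8 caps read 0.718 RPKM (46 reads), against 0.056 RPKM in their control 3 (4 reads), a ratio of 12.8 with a counting interval of 4.68 to 49.0 and no replicate. Chordin caps had 2 reads. BMP4 caps have no value for cer1.S, and if the pair was left out for a mean under 1 RPKM, the BMP4 value was below 1.98 RPKM.

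The L copy of cer1 was quieter and followed the same order in the libraries that hold it. It read 6.28 RPKM in Wnt8 plus Xnr2 caps, 7.40 RPKM in the dorsal part and 1.60 RPKM in the ventral part. Controls were at 0, 0.0136, 0.0224 and 0 RPKM, dissociated caps at 0, 0 and 0.0354 RPKM, and Chordin and Wnt8 caps at 0, so none of these had more than 2 reads. BMP4, FGF8 and Xnr2 caps have no value for cer1.L. Of all cer1 reads, cer1.L took 7.17% in Wnt8 plus Xnr2 caps (95% Clopper-Pearson interval 6.51 to 7.87), 4.11% in the dorsal part (3.72 to 4.53) and 3.25% in the ventral part (2.57 to 4.03).

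The feedback inhibitor lefty.L was the only transcript of the group with reads in all 16 libraries. It read 8.60 RPKM in BMP4 caps, 2.76 RPKM in FGF8 caps, 7.61 RPKM in Xnr2 caps and 19.0 RPKM in Wnt8 plus Xnr2 caps, against 0.303, 0.352, 0.234 and 0.859 RPKM in controls 1 to 4. These 4 injected libraries were above every control. Chordin caps, at 0.993 RPKM, were above all 4 controls by less than the gap between controls 3 and 4, while Wnt8 caps at 0.221 RPKM and Cerberus caps at 0.415 RPKM lay below or among them. The dorsal part read 18.0 RPKM and the ventral part 13.3 RPKM, both below the double injection and above all other libraries.

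Its S copy was also highest in the double injection, but its order differed, with Xnr2 caps above BMP4 caps and level with the dorsal part. For lefty.S the values were 2.64 RPKM in BMP4 caps, 9.38 RPKM in Xnr2 caps and 24.7 RPKM in Wnt8 plus Xnr2 caps, against 0.168, 0.0717, 0.0594 and 0.301 RPKM in controls 1 to 4. Chordin caps read 0.452 RPKM, Wnt8 caps 0.132 RPKM and Cerberus caps 0.181 RPKM, which put Chordin above and the other two among the controls. The dorsal part read 9.34 RPKM and the ventral part 6.17 RPKM, and FGF8 caps have no value.

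Tests across all transcripts used limma on log2(RPKM + 1), with a call at an adjusted p under 0.05. Adjustment was over every transcript that averaged at least 1 RPKM. For dissociation, this average was over all libraries compared. For an injected library, it was over that library and its own control only. Some tested transcripts, such as nodal.L after BMP4, therefore averaged under 1 RPKM over all libraries of their fit. A lone injected library was set against controls 1 to 4, and the spread came from control and dissociated caps, so that library is assumed to vary like them. Since none of the 6 transcripts reached 1 RPKM in a control, each could be tested only where the injected library was high. Counts of tested transcripts are therefore not counts over the group.

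After Wnt8 plus Xnr2, 6 transcripts of the group outside the injected nodal2 could be tested and 6 rose, where 3.5% of the 14990 transcripts tested rose. All 6 could be tested only because this library was high, so their count cannot be set against that share. The antagonist cer1.S rose by 6.54 ± 0.47 on the log2 scale (SE, limma adjusted p = 4.74e-05), with a control mean of 0.109 ± 0.166 RPKM (SD, n = 4). Its copy cer1.L rose by 2.85 ± 0.15 (adjusted p = 6.66e-06). The inhibitor lefty.S rose by 4.49 ± 0.24 (adjusted p = 7.49e-06) and lefty.L by 3.82 ± 0.48 (adjusted p = 0.00174). The ligands rose too, nodal1.L by 2.71 ± 0.16 (adjusted p = 1.35e-05) and nodal.L by 2.08 ± 0.19 (adjusted p = 0.0002). Control 4 had 0 reads of both cer1 copies. Against it alone, the lower end of the 95% interval of the ratio was 1547 for cer1.S and 119 for cer1.L (exact binomial on reads, counting error only). All 6 calls held in each alternative fit.

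After Xnr2 alone, 4 transcripts outside nodal2 could be tested and 4 rose, where 3.69% of 14771 transcripts rose. Here too the 4 entered the test only through the injected library, so the count is not comparable with that share. The antagonist cer1.S rose by 3.37 ± 0.46 on the log2 scale (SE, limma adjusted p = 0.00278). Against 0 reads in control 4, the lower end of the 95% interval of its ratio was 158 (exact binomial on reads, counting error only). The inhibitor lefty.S rose by 3.18 ± 0.23 (adjusted p = 4.92e-05) and the ligand nodal1.L by 1.52 ± 0.15 (adjusted p = 0.000361). The change of lefty.L was 2.60 ± 0.47 (adjusted p = 0.0156), and the call was lost against its own control, with the control set as a block (2.21, limma adjusted p = 0.0934). With a pseudocount of 0.1 in place of 1, cer1.S (limma adjusted p = 0.0793) and lefty.L (limma adjusted p = 0.0518) were no longer called.

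After BMP4, 3 transcripts of the group could be tested, where 0.417% of 16050 transcripts rose. These 3 also entered the test only through the injected library, so a count of calls among them cannot be set against that share. The ligand nodal.L rose by 1.56 ± 0.23 on the log2 scale (SE, limma adjusted p = 0.0219), against a control mean of 0.157 ± 0.132 RPKM (SD, n = 4). The inhibitor lefty.S rose by 1.67 ± 0.26 (adjusted p = 0.0311), and lefty.L, with a change of 2.76 ± 0.48, missed the threshold (adjusted p = 0.0665). Neither call held with the control set as a block (limma adjusted p = 0.132 for nodal.L and 0.152 for lefty.S) or without control 3 (0.0879 and 0.123) or control 4 (0.0566 and 0.0631). Without control 2, lefty.S lost its call (limma adjusted p = 0.0621) and nodal.L kept it (0.0171). Without control 1, both calls stood, at a limma adjusted p of 0.012 and 0.0209. Against control 1 by itself, which had 16, 7 and 2 reads of lefty.L, lefty.S and nodal.L, BMP4 caps were 28.4-fold (17.3 to 50.1), 15.7-fold (7.39 to 39.7) and 59.5-fold (16.2 to 496) higher, with intervals for counting error only.

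**Figure D2:**
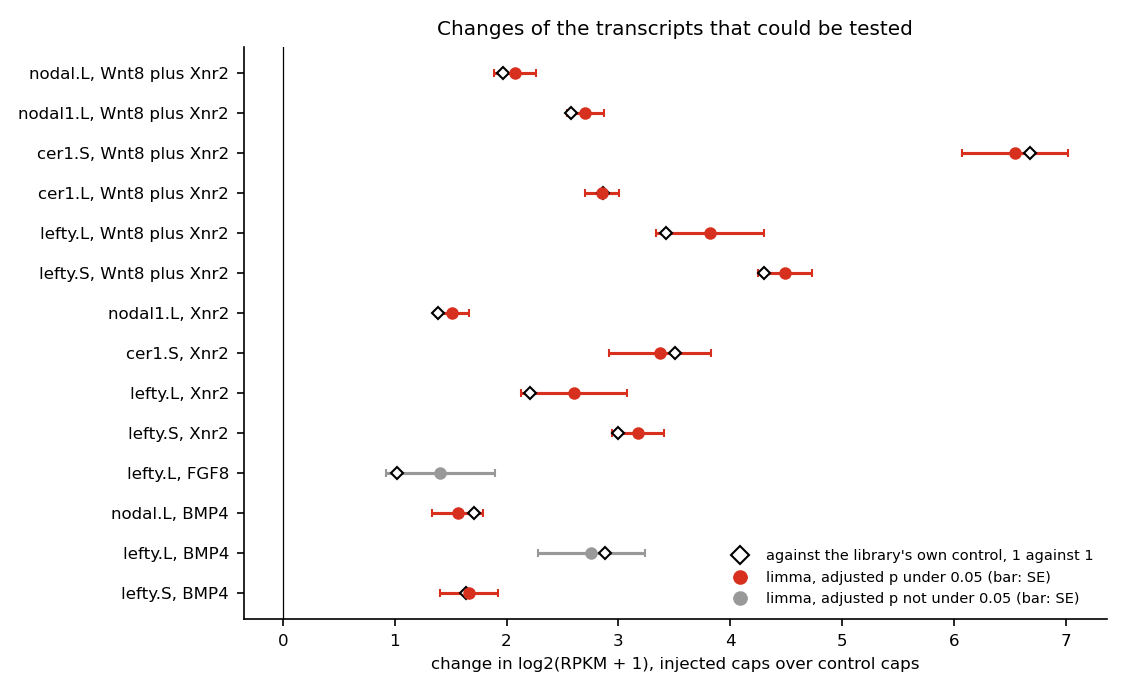
Change in log2(RPKM + 1) of each transcript that could be tested, injected caps over control caps, with the standard error of the limma fit as bars; red marks an adjusted p under 0.05 and open diamonds the change against the library's own control. The largest change is that of cer1.S after Wnt8 plus Xnr2, at 6.54, and the FGF8 value of lefty.L and the BMP4 value of lefty.L are grey.

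FGF8 left 1 transcript to test, lefty.L, which entered only through the injected library, and 0.168% of 14317 transcripts rose. Its change of 1.41 ± 0.49 on the log2 scale did not pass (SE, limma adjusted p = 0.968). Against control 4, the ratio was 3.22 with a counting interval of 2.40 to 4.38.

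Chordin, Wnt8 and Cerberus left no transcript of the group above the minimum, apart from the injected cer1.S, and called 0.0128%, 0.0758% and 0.0753% of all transcripts tested. With no minimum, 8, 8 and 6 transcripts of the group were tested and 0 had a limma adjusted p or an unadjusted p under 0.05, with 0.256, 0.235 and 0.44 as the lowest unadjusted p. Against control 1 alone, Chordin caps gave a ratio of 3.28 (1.85 to 6.15) for lefty.L, from 53 and 16 reads. For lefty.S the ratio was 2.69 (1.08 to 7.57), from 19 and 7 reads, with counting intervals and no replicate. At these levels, of at most 53 reads, a change could not be separated from the spread of the controls.

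Dissociation left no transcript of the group above the minimum either, where 0.316% of 15821 transcripts were called. Dissociated caps read 0.744, 3.07 and 0.756 RPKM of lefty.L, against 0.303, 0.352 and 0.234 RPKM in controls 1 to 3. The 2 groups do not overlap, though control 4, which had no dissociated partner, lay among the dissociated values. For nodal.L, dissociated caps held 0, 0.0219 and 0 RPKM, 1 read in all, against 0.0405, 0.302 and 0.050 RPKM in controls 1 to 3, again without overlap and in the other direction. An exact permutation test over all 6 libraries gave p = 0.1 (two-sided) for each, which is the smallest that 3 against 3 libraries allow. With labels exchanged only within the 3 pairs, the exact p was 0.25 for each, again the smallest possible. Among 20350 transcripts with reads and a mean under 1 RPKM, the share that was separated in this way was 2.97% upward and 6.21% downward. With no minimum, limma tested all 16 transcripts and none had an unadjusted p under 0.05, the lowest adjusted p being 0.843. The other lefty copy overlapped between the groups: lefty.S read 0.0747, 0.468 and 0.188 RPKM in dissociated caps, against 0.168, 0.0717 and 0.0594 RPKM in controls 1 to 3 (exact permutation p = 0.2), and was lower than its control in the first pair. The antagonist cer1.S overlapped between the groups as well, with 1 read in dissociated 1, 59 in dissociated 2 and 0 in dissociated 3. Marker lists differed in the same libraries. The epidermis list summed to 34.6, 91.1 and 883 RPKM in dissociated caps, against 1087, 4115 and 2537 RPKM in controls 1 to 3. The neural list summed to 1391, 1296 and 676 RPKM in dissociated caps, against 404, 105 and 111 RPKM. The organizer list summed to 1063, 745 and 820 RPKM in dissociated caps, against 162, 82.0 and 81.6 RPKM. In dissociated 1, gsc.L read 3.57 RPKM, gsc.S 0.136 RPKM, foxa4.L 0.497 RPKM and the highest chordin model 1.52 RPKM. Most of that organizer sum therefore lay on other transcripts of the list. The part of these shifts in the levels of lefty and nodal was not tested.

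All 4 transcripts with a value in both Xnr2 libraries, apart from the injected one, read higher with Wnt8 added, with 1 library on each side and so no replicate error. The antagonist cer1.S read 102 RPKM in Wnt8 plus Xnr2 caps and 10.4 RPKM in Xnr2 caps, a ratio of 9.77 (95% interval 8.90 to 10.8, exact binomial on reads, counting error only). The ligand nodal1.L gave a ratio of 2.92 (2.30 to 3.74), and lefty.S and lefty.L gave 2.64 (2.36 to 2.96) and 2.50 (2.24 to 2.80). Those 3 intervals overlap each other, and that of cer1.S lies above them. On RPKM + 1, all 4 were at least 2-fold higher, as were 2.5% of the 15381 transcripts in both libraries, and cer1.S was at least 4-fold higher, as were 0.143%. All 4 were under 1 RPKM in control 4 and so were listed only because the Xnr2 libraries were high. Their count therefore cannot be set against these shares. The injected Xnr2 gene itself, nodal2.L, read 12.5 RPKM in Wnt8 plus Xnr2 caps and 3.29 RPKM in Xnr2 caps, a ratio of 3.79 (3.16 to 4.58), so the libraries did not hold equal amounts of nodal2 RNA. The part of this difference in the ratios of the other transcripts was not tested.

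Between the parts of the embryo, the ligand and the cer1 copies leaned to the dorsal side more than lefty did. In the dorsal part over the ventral part, nodal.L gave a ratio of 8.05 (5.39 to 12.5), cer1.L 4.62 (3.61 to 5.97) and cer1.S 3.62 (3.45 to 3.79), each from 1 library a side with counting error only. The ratio was 1.51 (1.28 to 1.79) for lefty.S and 1.36 (1.22 to 1.51) for lefty.L, both intervals below those of the other transcripts. On RPKM + 1, 3 of the 5 were at least 2-fold higher in the dorsal part, as were 1.79% of 14998 transcripts. None reached 4-fold, as 0.467% did. Only transcripts averaging at least 1 RPKM over both parts are listed, and nodal.L was listed only because the dorsal part was high. The count over the group therefore cannot be set against these shares. The endoderm gene sox17a.L read 99.3 RPKM in the dorsal part and 122 RPKM in the ventral part, and the organizer gene gsc.L read 4.27 RPKM in the dorsal part and 0.271 RPKM in the ventral part.

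**Figure D3:**
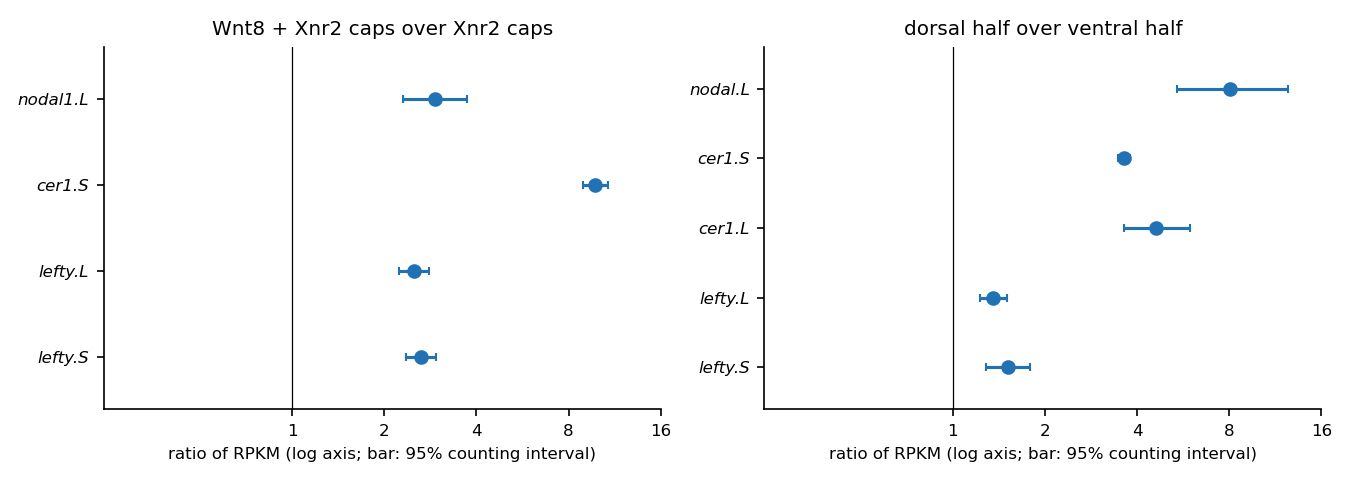
Ratio of RPKM with its 95% counting interval, on a log axis, for Wnt8 plus Xnr2 caps over Xnr2 caps on the left and for the dorsal over the ventral part on the right. The ratio of cer1.S, at 9.77, stands right of the other 3 on the left, and nodal.L, at 8.05, is rightmost on the right.

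The balance of the lefty copies differed between libraries. Of all lefty reads, lefty.S took 49.2% in Xnr2 caps (95% Clopper-Pearson interval 45.8 to 52.7) and 50.5% in Wnt8 plus Xnr2 caps (48.5 to 52.6), against 21.6% in their control 4 (12.9 to 32.7, from 74 reads). The share was 19.4% in BMP4 caps (16.5 to 22.6), where lefty.L stood near its level in Xnr2 caps. It was 29.0% in the dorsal part (26.5 to 31.5) and 26.8% in the ventral part (23.8 to 29.9). Dissociated caps had 7.32 to 16.3% and controls 13.8 to 30.4%, from 23, 29 and 24 lefty reads in the first 3 controls. Outside the Xnr2 libraries, every share was at most 32%, and only the intervals of control 1 and Wnt8 caps, with 23 and 25 reads, reached into the Xnr2 range. Over libraries the share averaged 20.6 ± 7.29% in the 4 controls (SD). These intervals compare single libraries by their reads, and no test over replicates was run on the shares.

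**Figure D4:**
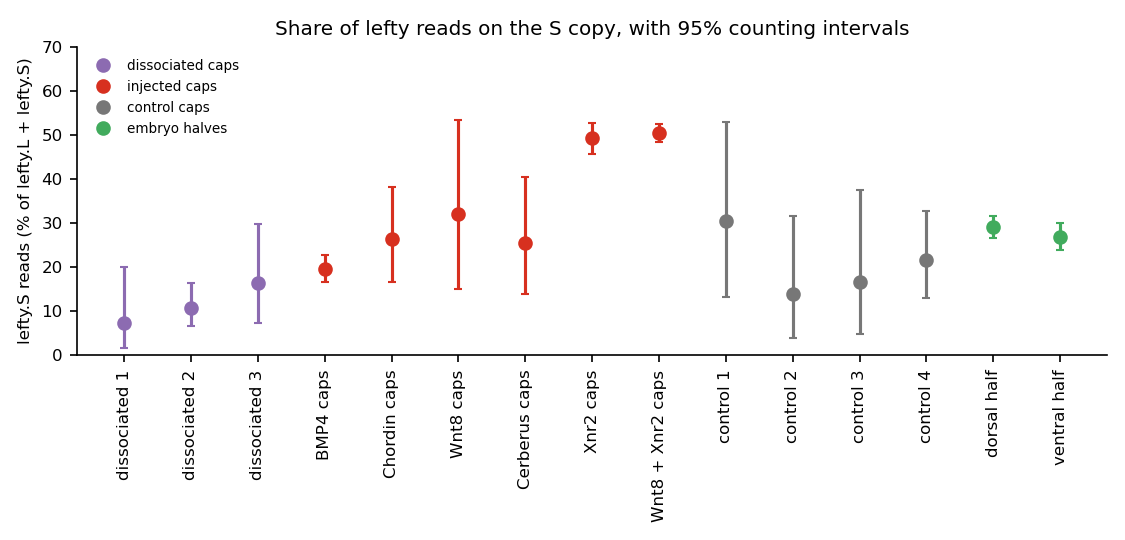
Percentage of lefty reads that lie on lefty.S in each library with a value for both copies, with 95% Clopper-Pearson counting intervals. Both Xnr2 libraries sit near 50%, at 49.2 and 50.5%, and no other library is above 32%.

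Other genes of the pathway were read from a list of ligands and partners, co-receptors, receptors, processing enzymes, transducers, inhibitors and targets. Those tested in a lone injected library include targets near 0 in controls only where the library raised them. After Wnt8 plus Xnr2, 23 of 46 transcripts of the list rose and 0 fell, with a median change of 1.49 against -0.07 over all transcripts tested, and after Xnr2, 19 of 42 rose and 0 fell, with a median of 0.62 against -0.14. These counts leave out list transcripts without a read in controls 1 to 3 and dissociated caps. Of those, smad7.L read 14.0 RPKM in Xnr2 caps and 6.32 RPKM in Wnt8 plus Xnr2 caps, against 25.8 RPKM in control 4. Also lower in both were smad7.S, skil.S and foxh1.2.L. Higher where listed were gdf3.S, chrd.1.L, tdgf1.1.L, smad3.L and fst.S, while tdgf1.3.S was higher in Xnr2 caps and lower in the double injection. Its copy tdgf1.3.L read 85.1 RPKM in Xnr2 caps, but 57.9 RPKM in the double injection, near the 57.0 RPKM of control 4. After BMP4, 20 of 48 rose and 0 fell, with a median of 0.77 against 0.16. After FGF8, 4 of 25 rose and 0 fell, all of them targets. Over all transcripts tested, 3.5% rose after Wnt8 plus Xnr2, 3.69% after Xnr2, 0.417% after BMP4 and 0.168% after FGF8. After Chordin, Wnt8 and Cerberus 0 of 27, 33 and 34 passed in either direction.

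By role, most calls were of targets. Of target transcripts, 21 of 24 rose after Wnt8 plus Xnr2, 18 of 21 after Xnr2 and 19 of 21 after BMP4. Targets near 0 in controls entered only where the library raised them. These counts are therefore not comparable with the shares over all transcripts, or with the counts of other roles. None of the 8 receptor transcripts passed in any of the 8 comparisons, nor did the Smad and Foxh1 transducers. One TGF-beta family ligand, gdf3.1, rose after BMP4 by 4.85 on the log2 scale, against 0.788 RPKM in controls (limma adjusted p = 0.000482). A transcript named gdf3.S read 307 RPKM in Wnt8 plus Xnr2 caps and 143 RPKM in Xnr2 caps, against 0.88 RPKM in control 4. It had no read in controls 1 to 3 or dissociated caps and so was left out of the fits. One EGF-CFC co-receptor, Xelaev18006975m with the human match CFC1, rose after Xnr2 (7.75 RPKM, against a control mean of 0.0602 RPKM, limma adjusted p = 1.12e-05). It also rose after Wnt8 plus Xnr2 (4.25 RPKM, adjusted p = 4.74e-05). The activin inhibitor follistatin, fst.L, rose after Wnt8 plus Xnr2 (2.61 RPKM, against 0.0737 RPKM, adjusted p = 0.000589).

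Among the targets, the T-box gene brachyury was among the smallest adjusted p-values after both Xnr2 injections. Its t.L read 384 RPKM in Wnt8 plus Xnr2 caps and 332 RPKM in Xnr2 caps, against 0.113 RPKM on average in controls (limma adjusted p = 1.06e-06 and 1.27e-06). The related t2.S read 191 and 169 RPKM in the same libraries (adjusted p = 1.06e-06 and 1.27e-06). Next came t.S after Wnt8 plus Xnr2, with 534 RPKM (adjusted p = 1.38e-06), and wnt8a.S after Xnr2, with 94.7 RPKM (adjusted p = 1.27e-06). After BMP4 the homeobox genes mix1.S and mix1.L led, with 62.0 and 54.5 RPKM against 0.0193 and 0.0621 RPKM in controls (limma adjusted p = 1.82e-05 and 2.07e-05), followed by t.S and wnt8a.S (3.11e-05 each). After FGF8, wnt8a.L (37.0 RPKM, adjusted p = 0.00141), t.S (12.4 RPKM, adjusted p = 0.00502) and wnt8a.S (5.42 RPKM, adjusted p = 0.00601) rose.

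Defining Nodal targets are given for context. The T-box gene eomes.L read 28.1 RPKM in Wnt8 plus Xnr2 caps, 38.6 in Xnr2 caps, 16.1 in FGF8 caps and 41.3 in BMP4 caps, against 0.494, 0.639, 1.11 and 1.60 RPKM in controls 1 to 4. Its copy eomes.S had the Xnr2 libraries in the other order, with 35.0 RPKM in Wnt8 plus Xnr2 caps and 18.0 RPKM in Xnr2 caps. It read 17.7 RPKM in BMP4 caps. The endoderm gene sox17a.S read 44.7 RPKM in Wnt8 plus Xnr2 caps and 18.7 RPKM in BMP4 caps, both called, but 4.72 RPKM in Xnr2 caps, which was not (limma adjusted p = 0.0602), against a control mean of 0.775 RPKM. The Xnr2 libraries were closer for sox17a.L, at 18.2 RPKM with Wnt8 and 8.70 RPKM without. That copy read 17.3 RPKM in BMP4 caps, against 2.14, 0.240, 0.639 and 0.588 RPKM in controls 1 to 4. So in BMP4 caps lefty.L, nodal.L, mix1 and sox17a all read above every control, though lefty.L was not called and the call of nodal.L did not hold in every fit. For cer1.S these caps have no value, so its level beside them is not known. The organizer homeobox gene gsc.L rose after Wnt8 plus Xnr2 (10.4 RPKM, against 0.0971 RPKM, adjusted p = 0.00023). Its copy gsc.S read 2.79 RPKM there, against 0.0263, 1.47, 0.584 and 0.679 RPKM in controls 1 to 4.

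Dissociation changed 2 of 32 tested transcripts of the list, where 0.316% of 15821 transcripts were called. The target gsc.L read 3.57, 5.78 and 3.76 RPKM in dissociated caps, against 0, 0.250 and 0.0444 RPKM in controls 1 to 3. It rose by 2.27 ± 0.27 on the log2 scale (SE, limma adjusted p = 0.0293). Its other copy, gsc.S, overlapped between the groups, at 0.136, 1.45 and 10.4 RPKM in dissociated caps, against 0.0263, 1.47 and 0.584 RPKM. That copy was not called (0.99 ± 0.80, SE, limma adjusted p = 0.777). The inhibitor pmepa1.L averaged 0.0228 RPKM in dissociated caps, against 3.13 ± 0.93 RPKM in controls (SD, n = 3), and fell (adjusted p = 0.041). The calls of gsc.L and pmepa1.L come from the fit that did not use the pairing. Whether they hold with the control set as a block is not given here. The list's median change was -0.12, against -0.08 over all transcripts tested.

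**Figure D5:**
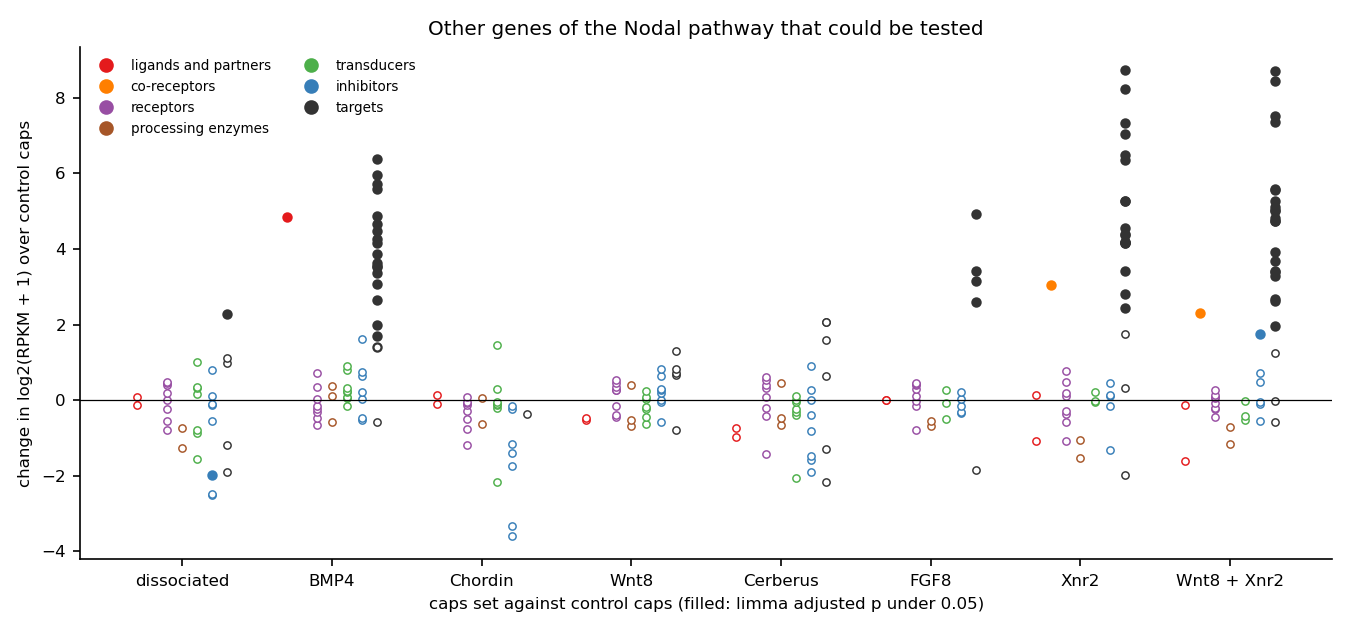
Change in log2(RPKM + 1) over control caps of the other pathway transcripts that could be tested, coloured by role, in each of the 8 comparisons; filled points have a limma adjusted p under 0.05. Filled points are mostly targets, with 21 after Wnt8 plus Xnr2, 18 after Xnr2, 19 after BMP4 and 4 after FGF8. Targets near 0 in controls entered only where the injected library raised them, so roles cannot be compared by these counts.

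Marker lists of other tissues also differed between libraries, and not only where transcripts of the group rose. Over the transcripts with a value in both libraries of a pair, the summed level of the mesoderm list (12 transcripts) was 2876 RPKM in Wnt8 plus Xnr2 caps and 2836 RPKM in Xnr2 caps, against 3.95 RPKM in control 4, where 2 were at 0. In BMP4 caps, 7 of them summed to 479 RPKM, against 3.84 RPKM in control 1. For the endoderm list (19 transcripts) the sums were 346 RPKM over 7 in Wnt8 plus Xnr2 caps, against 43.1 RPKM in control 4, and 199.7 RPKM over 6 in Xnr2 caps, against 41.3 RPKM. In BMP4 caps, 4 of them summed to 44.5 RPKM, against 10.2 RPKM in control 1. The same 4 summed to 10.5, 42.9 and 34.8 RPKM in controls 2, 3 and 4, so BMP4 caps stood near control 3. The epidermis list summed to 448 RPKM in Wnt8 plus Xnr2 caps and 826 RPKM in Xnr2 caps, against 6102 RPKM in control 4, over 18 of 24 transcripts. Over 15 transcripts it summed to 1198 RPKM in BMP4 caps, against 1087 RPKM in control 1, the control that stood apart, and against 4072 and 2525 RPKM in controls 2 and 3. Over the 14 listed with control 4 it was 999.8 RPKM in BMP4 caps, against 2325 RPKM. The organizer list (16 transcripts) summed to 1069 RPKM over 14 in Wnt8 plus Xnr2 caps, against 123 RPKM in control 4, to 569 RPKM over 12 in Xnr2 caps, against 122 RPKM, and to 873 RPKM over 15 in the dorsal part, against 271 RPKM in the ventral part. The neural list (14 transcripts) summed to 876 RPKM over 8 in FGF8 caps, against 99.1 RPKM in control 4. Over 7 it summed to 392 RPKM in Xnr2 caps and 301 RPKM in Wnt8 plus Xnr2 caps, against 98.1 RPKM. Over 13 it was 908 RPKM in Cerberus caps, against 110 RPKM in control 3, and 1070 RPKM in Chordin caps, against 404 RPKM in control 1. The part of these shifts in the levels of nodal, cer1 and lefty was not tested.

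Across libraries, the transcripts most like each member were found by Pearson correlation of log2(RPKM + 1). These are descriptions over 10 to 16 libraries that share controls and, for most, are set by the few libraries with a high level. Nearest to cer1.S over 13 libraries were a pair of models with the human match KAZALD1, Xelaev18003703m (r = 0.993) and Xelaev18003702m (0.985), then SLC5A8 (Xelaev18017365m, 0.983), the unmatched Xelaev18028321m (0.976) and the Wnt antagonist frzb.L (0.976). For cer1.L over 12 libraries they were the LIM homeobox gene copies lhx1.S (0.995) and lhx1.L (0.989), then eomes.S (0.989), plod2-like.L (0.983) and ENPP2 (Xelaev18032325m, 0.98).

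The nearest to lefty.L over all 16 libraries were foxa4.L, a forkhead gene of the organizer (0.959), flrt3.L (0.953), HES7 (Xelaev18019216m, 0.946), the hyaluronan synthase has2.S (0.946) and t.S (0.932). The S copy had has2.S (0.984) and has2.L (0.983) first over 15 libraries, followed by lhx1.L (0.983), the unmatched Xelaev18010420m (0.981) and clcf1.L (0.98). For the ligand nodal.L, over 14 libraries, the list ran eomes.S (0.954), numbl.L (0.941), eomes.L (0.94), fgf8.L (0.918) and has2.L (0.912). For nodal1.L, over 12 libraries, it ran Xelaev18007264m without a match (0.999), nodal2.L (0.998), which was injected in both libraries where nodal1.L was high, NAT8B (LOC101731538-like.S, 0.997), SLC5A8 (Xelaev18017365m, 0.995) and APCDD1 (Xelaev18033587m, 0.994). The place of nodal2.L in that list rests on its values in both injected libraries, which are set aside, and is not read as a result. Outside the libraries injected with it, nodal2.L had at most 2 reads, so its nearest transcripts (0.912 to 0.958 over 10 libraries) are not named.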

How the data were processed

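The members and gene lists were chosen with earlier results of these data known. The authors deposited RPKM per transcript of JGI9.1 gene models, per the file headers. TopHat2 2.09 and DESeq appear in the submitters' processing notes without a role, and neither annotation release nor read assignment is stated there. Tables of 1 pair of libraries hold only transcripts averaging at least 1 RPKM, per the file headers, so an unlisted transcript was treated as having no value. The authors' deposited fold change columns are ratios of 2 RPKM columns and were not used. Read counts were recovered from the deposited RPKM: 31587 of 31588 transcripts with at least 3 values above 0 came out whole to within 0.01 reads.

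Tests used limma 3.58.1 (R 4.3.3) on log2(RPKM + 1), with trended variance. The p-values were adjusted by Benjamini-Hochberg across every transcript that averaged at least 1 RPKM. For an injected library, that average was over the library and its own control, not over all controls in the fit. A log2 change on this scale understates the change of low values. Fits with control 4 left out transcripts lacking any read in controls 1 to 3 and dissociated caps (894, 948 and 962 in the FGF8, Xnr2 and double-injection fits), because names differ between tables, a choice made with the values in view. The procedure was tested on simulated data. Same-numbered control and dissociated libraries deviated together (r = 0.58, 0.39 and 0.63 over 15821 transcripts) and the labels tie them. The main fits did not use this pairing. It entered only in alternatives, with the control set as a block or with labels exchanged within pairs. Ratios of 1 library to 1 carry exact binomial intervals (scipy 1.17.1). Named genes are all members, up to 3 pathway transcripts with the smallest adjusted p per direction and comparison, gsc, mix1, eomes and sox17, and the 5 most similar transcripts per member. The co-receptors, gdf3.1, gdf3.S, fst.L, krt12.S, krt5.7.L and the list transcripts left out of the fits were named after their values were seen.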

Additional observations from a re-analysis of the deposited data

Results flagged for a closer look

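In 1 of the 7 member transcripts that have a value in all 4 controls and reads in at least 1 of them, a control library stood away from the other 3. cer1.S read 0.355 RPKM in control 2 (21 reads), against 0 to 0.056 RPKM in controls 1, 3 and 4, and the gap to the nearest of them was 0.842 of the whole range, above Dixon's 95% limit for 4 samples. Chance gives such a gap in about 1 group in 20. The dissociated library paired with control 2 was also the highest of its 3, at 1.45 RPKM.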

How the results depend on the processing

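All 6 calls after Wnt8 plus Xnr2 and the absence of a call after FGF8 held in each of 10 alternatives. After Xnr2, the count of 4 called became 2 with a pseudocount of 0.1. After BMP4, the count of 2 became 0 with a pseudocount of 0.1, 0 with limma-voom on recovered reads and 0 with the control set as a replicate block, and ran from 0 to 2 when 1 control was left out; it was 3 with a pseudocount of 5 and with median scaling. The cause was not tested. The block changed no other call than these and that of lefty.L after Xnr2. With no pseudocount, the log2 ratio of nodal1.L in Wnt8 plus Xnr2 caps over Xnr2 caps was 1.55 in place of 1.19, and dorsal over ventral it was 2.21 in place of 1.69 for cer1.L and 3.01 in place of 1.88 for nodal.L, since adding 1 shrinks ratios of low values. Median scaling moved the median change of all transcripts by 0.16 after both Xnr2 and FGF8, and no direction turned. Keeping the transcripts left out of the fits with control 4, chosen after seeing the data, changed no call of the group. Each injection and each embryo part was 1 library, and levels of a few reads limit what can be seen in control, dissociated, Chordin, Wnt8 and Cerberus caps. For dissociation, Chordin, Wnt8 and Cerberus caps, no alternative with the 1 RPKM minimum gave a member to test.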

Other observations

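Some transcripts of the same families lie outside the naming rule, and their values were looked at after the results above. Among the models matched to human NODAL, 8 described as Xnr5 were at 0 in every library with a value. The other 3, described as Xnr3, a direct Wnt target in the frog organizer, had reads in Wnt8 caps. Xelaev18018866m read 2.03 RPKM there (89 reads), against 0 in control 3. Xelaev18018867m and Xelaev18018868m read 1.80 and 1.90 RPKM there, from 19 and 5 reads, against 0 in control 3. Controls 1 to 3, dissociated, Chordin and Cerberus caps were at 0 except for 1 read of the first in dissociated 2, and BMP4 caps, the libraries of control 4 and the embryo parts have no value.

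A Cerberus-family model, dand5-like.1, whose human match is CER1, had reads in caps, among them controls 1 to 3, where cer1 was near 0. BMP4 and Chordin caps read 8.97 and 5.12 RPKM, against 9.72 RPKM in control 1. Wnt8 and Cerberus caps read 2.01 and 2.21 RPKM, against 1.79 RPKM in control 3. Dissociated caps read 3.05, 2.46 and 0.802 RPKM, against 9.72, 0.871 and 1.79 RPKM in controls 1 to 3, so the direction differed between pairs. A second model matched to CER1, dand5-like.L, read 3.28 RPKM in BMP4 caps, above the 2.36 RPKM of control 1. In the other pairs its direction was that of dand5-like.1.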
